A study of Mus musculus with 7 samples.

Results

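Cytosolic ribosomal proteins were followed through their transcripts in mouse olfactory neurons and in the progenitors that give rise to such neurons. The genes were taken by name: every Rpl or Rps symbol with a number, an optional suffix of the a, x or l kind, the laminin receptor gene Rpsa and the stalk genes Rplp0 to Rplp2. This gave 89 of the 54532 genes in the tables, 53 named for the large subunit and 36 for the small one. Of these, 83 were protein-coding in GENCODE release M21 (51 large, 32 small) and 6 were processed pseudogenes that carry a gene-like name (Rpl6l, Rpl32l, Rps3a2, Rps3a3, Rps4l and Rps12l1).

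Messenger RNA came from pools of cells sorted by fluorescence from olfactory epithelia. Mature olfactory sensory neurons of OMP-GFP mice were sampled at 3 postnatal ages, P2, P7 and P16. Intermediate progenitor cells of Neurog1-GFP mice were sampled at 4, namely P3, P7, P9 and P16. There was 1 library for each population and age, the ages were taken as replicates, and the labels give neither the litters nor the number of animals in each pool. The p-values therefore measure the spread between these libraries, which may in part be technical. Population and mouse line coincide, and their effects cannot be told apart. In sorted pools, fewer cells of a type and less RNA per cell cannot be told apart either. Libraries held 24203965 to 25930727 counts on genes. Of the markers of mature olfactory neurons, 8 of 9 were higher in the neurons by edgeR on counts, and all 7 progenitor, all 6 immature neuron and all 7 dividing cell markers were lower. Omp itself was not called, with 1369.7 ± 285 TPM in mature neurons (SD, n = 3) and 1995 ± 479.8 TPM in progenitors (SD, n = 4). Sustentacular genes summed to 2165 to 2389 TPM in mature neurons and 1163 to 1660.3 TPM in progenitors, with 4 of 6 called higher, and ensheathing glia genes to 29.7 to 72.4 and 4.95 to 22.2 TPM, with 5 of 5 higher. Leukocyte genes summed to 26.8 to 135 TPM in mature neurons and 9.85 to 33.2 TPM in progenitors, with 5 of 6 tested called higher and the P16 neuron library highest. Erythroid genes summed to 369 to 3023 TPM in mature neurons and 192 to 1360.2 TPM in progenitors, with 1 of 5 higher. No marker in these lists was at 0 in every library of a population, and their part in the results below was not tested.

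A ribosome is built from a small subunit, which reads the messenger RNA, and a large subunit, which joins the amino acids. Each subunit takes in its proteins in fixed proportion, and cells that grow and divide make more ribosomes than cells that have left the cycle. Most of these messenger RNAs begin with a run of pyrimidines, the terminal oligopyrimidine (TOP) tract, through which growth signalling controls their translation. The genes are short and abundantly transcribed, and reverse-transcribed copies of their messages are scattered over mammalian genomes as processed pseudogenes.

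Those copies can bear on the values below. By sequence search, 1669 annotated pseudogenes were nearest to 1 of the coding members (at least 80% identity over at least 50% of the coding sequence). A total of 80 coding members had at least 1 copy, with a median of 14 and a highest number of 142, for Rpl7a. In 29 coding members every window of 50 bases of the coding sequence also occurred in the transcript of another gene. Some copies differ from their gene by a handful of bases. They are shown next for 5 genes whose values were divided differently between gene and copy in the 2 populations. Each stretch is the 60 coding bases in which gene and copies differ most, from GENCODE M21 transcripts on GRCm38, and capitals mark bases of the copy that differ from the gene.
Rpl26: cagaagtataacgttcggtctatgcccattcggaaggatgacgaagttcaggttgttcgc
Gm15772: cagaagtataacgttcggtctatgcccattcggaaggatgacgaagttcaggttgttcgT
Rps13: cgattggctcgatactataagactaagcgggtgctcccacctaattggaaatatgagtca
Rps13-ps1: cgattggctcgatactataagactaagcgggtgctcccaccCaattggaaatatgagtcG
Rps13-ps2: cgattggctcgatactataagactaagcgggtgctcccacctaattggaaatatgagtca
Rps3a1: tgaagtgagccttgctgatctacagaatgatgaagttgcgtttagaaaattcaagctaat
Rps3a2: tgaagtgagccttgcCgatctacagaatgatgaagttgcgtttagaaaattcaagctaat
Rps3a3: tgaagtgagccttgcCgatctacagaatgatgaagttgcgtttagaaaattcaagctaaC
Rpsa: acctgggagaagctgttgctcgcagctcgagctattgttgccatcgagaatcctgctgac
Rpsa-ps10: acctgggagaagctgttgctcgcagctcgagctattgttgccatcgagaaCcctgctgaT
Rps7: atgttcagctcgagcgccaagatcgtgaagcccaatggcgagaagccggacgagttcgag
Gm6472: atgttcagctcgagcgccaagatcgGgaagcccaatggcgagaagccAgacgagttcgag

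Over the whole coding sequence, Gm15772 (chromosome 5) differed from Rpl26 (chromosome 11) at 2 of 435 bases. The copy Rps13-ps1 (chromosome 8) differed from Rps13 (chromosome 7) at 2 of 453 bases, and Rps13-ps2, also on chromosome 7, at 0. Rps3a1 (chromosome 3) was matched by Rps3a2 (chromosome 14) with 4 differences and by Rps3a3 (chromosome 13) with 9 differences in 792 bases. Rpsa-ps10 (chromosome 3) had 6 differences from Rpsa (chromosome 9) in 885 bases. Gm6472 (X chromosome) had 3 differences from Rps7 (chromosome 12) in 582 bases.

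The members had fewer counts per TPM than a typical protein-coding gene. A median protein-coding gene with a mean of at least 10 TPM had 34.9 counts per TPM (9485 genes), whereas the members at that level had a median of 1.40 (84 genes). TPM divides by transcript length, so short genes have fewer counts per TPM even without shared sequence. Length was not adjusted for, and length and sharing were not separated in these values. Counts per TPM were 7.71 at the median for the 12 coding members at that level with under 50% of their 50-base windows shared, and 0.451 for the 29 whose windows were all shared. Rps29, a small subunit protein, had 707 to 854 TPM in mature neurons and 977 to 1175 TPM in progenitors but only 8 to 17 and 14 to 20 counts. Rpl23a, at the exit of the peptide tunnel, had 683 to 691 and 1191 to 1333 TPM but 10 to 20 and 23 to 36 counts. Rps3, with 8.09% of its windows shared, had 4946 to 5362 counts in mature neurons and 7758 to 9834 counts in progenitors. Its TPM was 418 to 438 and 640.4 to 755. Across the 80 coding members with at least 10 TPM, the rank correlation of shared windows with counts per TPM was -0.69. It is a description across genes that share the same libraries, without adjustment for length. Among the members with at least 100 TPM, 18 of 78 had a mean of under 100 counts, and the counting error of their folds is large.

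**Figure D1:**
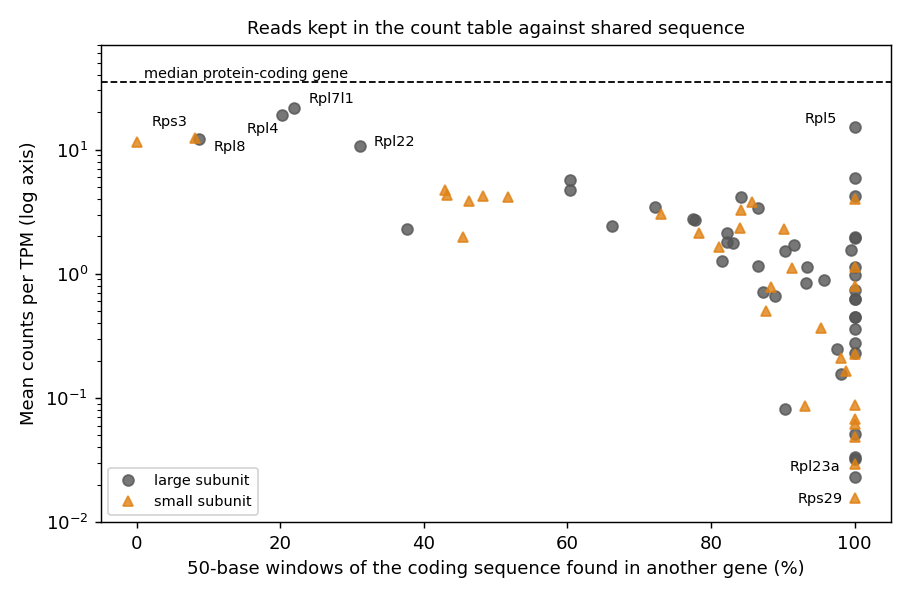
Mean counts per TPM (log axis) against the percentage of 50-base windows of the coding sequence that also occur in another gene, for the 80 coding members with a mean of at least 10 TPM; circles are large subunit and triangles small subunit genes. The dashed line is the median protein-coding gene at 34.9 counts per TPM, not adjusted for transcript length. Counts per TPM tend to be lower in members with more sharing, down to Rps29 and Rpl23a.

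Transcripts of both subunits were less abundant in mature neurons than in progenitors. The 53 large subunit genes summed to 20823, 19721 and 18678 TPM in mature neurons (P2, P7, P16), against 32077, 27323, 28317 and 28002 TPM in progenitors (P3, P7, P9, P16). The 36 small subunit genes summed to 16022, 14782 and 14372 TPM in mature neurons, against 27166, 22609, 23381 and 23206 TPM in progenitors. The populations did not overlap for either subunit, and the P3 progenitor library was the highest for both. Mature neurons held 0.682 of the progenitor level for the large subunit and 0.625 for the small one. Together the members made up 3.48% of all TPM in mature neurons and 5.30% in progenitors. These sums include the 6 pseudogenes with gene-like names. In the small subunit Rps12l1 averaged 501 TPM in mature neurons and 802 TPM in progenitors. Rps3a2 averaged 264 and 12.5 TPM, and Rps3a3 227 and 1.61 TPM.

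By these sums the large subunit looked relatively higher in mature neurons. The ratio of large to small subunit was 1.31 ± 0.0199 in mature neurons (SD, n = 3) and 1.20 ± 0.0141 in progenitors (SD, n = 4) in TPM, and 1.57 ± 0.0106 and 1.31 ± 0.0275 in counts. With the TPM of the annotated copies added to the 83 coding members, the ratio was 1.44 ± 0.0184 in mature neurons and 1.43 ± 0.0184 in progenitors. The libraries of the populations overlapped in that ratio. Gene-plus-copy sums in mature neurons stood at 0.619 of the progenitor level for the large subunit and 0.613 for the small one. The copies held 31.3% of the gene-plus-copy TPM in mature neurons and 34.5% in progenitors. Among the 12 coding members without a copy above 1 TPM (9 large, 3 small), the level in mature neurons was 0.591 of that in progenitors for the large subunit and 0.596 for the small one. Among the 15 coding members with under 50% of windows shared (8 large, 7 small) it was 0.623 and 0.571, and their ratio of large to small was 0.651 ± 0.0309 in mature neurons (SD, n = 3) and 0.598 ± 0.0162 in progenitors (SD, n = 4), with 1 neuron library (0.616) inside the progenitor range of 0.579 to 0.617. The ratio therefore depended on which members were summed.

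**Figure D2:**
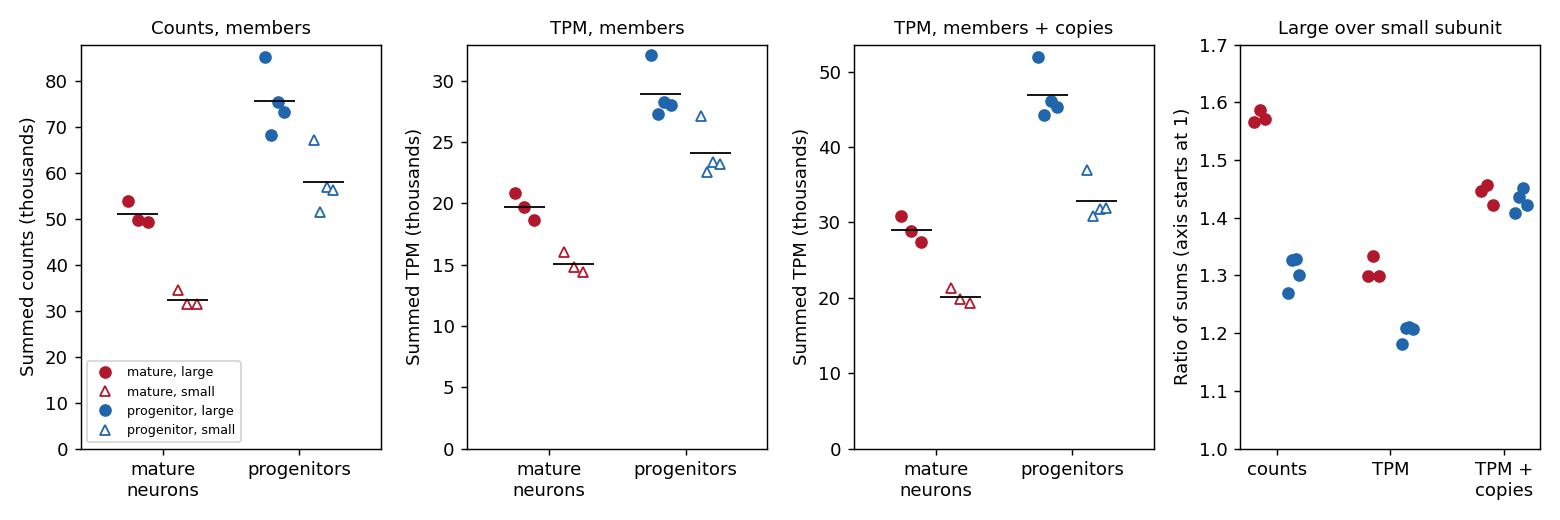
Summed counts and summed TPM of the large (circles) and small (open triangles) subunit genes. Sums are for all 89 members, which include 6 pseudogenes with gene-like names, and for the 83 coding members with their copies. The last panel is the ratio of the 2 sums, with an axis that starts at 1. Each point is a library and bars are means. Mature neurons (red) lie below progenitors (blue) in every sum, and their ratios separate in counts and TPM but overlap at 1.42 to 1.46 and 1.41 to 1.45 once copies are added.

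Gene by gene, most members were lower in mature neurons. Of the 82 members that passed the filter on low counts, edgeR called 58 lower, beside 30.0% of all 17975 genes tested, and 6 higher, beside 28.8% of all. The median fold over these members was -0.57 on the log2 scale, against 0.01 over all tested genes. Large and small subunit members were called lower in 34 of 48 and 24 of 34 cases, with medians of -0.53 and -0.60. On log2(TPM + 1), limma called 70 of 85 lower, beside 34.8% of all 16869 genes, and 7 higher, beside 22.8% of all. The median was -0.69 over members, against -0.10 over all genes on that scale. Counts were scaled between libraries by TMM, which centres the folds of typical genes, and TPM was not. A shift of all genes could therefore not show in counts. TPM has the same total in every library, so such a shift could not show in TPM either. The members' TPM did not overlap between the populations in 77 of 85 cases (70 lower, 7 higher), beside 59.7% of all 16868 genes with a mean of at least 1 TPM. Without the P16 neuron library, which had the most leukocyte and erythroid RNA, edgeR called 55 members lower and 5 higher. The share of all genes called in that fit is not given, so these counts were not set against it.

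Genes with little shared sequence gave the plainest values. Rps3, at the messenger RNA entry, had 429, 418 and 438 TPM in mature neurons, against 755, 640.4, 679 and 690.4 TPM in progenitors. The libraries did not overlap, with a log2 fold in counts of -0.59 ± 0.08 (SE, adjusted p = 3.6e-04, edgeR). In the large subunit, Rpl8, a core protein, had 639, 557 and 569 TPM in mature neurons, against 990.2, 822, 864 and 840.2 TPM in progenitors. Its fold was -0.46 ± 0.10 (adjusted p = 0.0041, edgeR), and that of Rpl4, another core protein, -0.39 ± 0.07 (adjusted p = 0.0021). Of the 12 tested coding members with under 50% of windows shared, 11 were called lower and 0 higher in both tables (the other was Rps27l), with medians of -0.62 in counts and -0.72 in TPM. Rps3, Rpl8 and Rpl4 were chosen after their values were seen, for their low sequence sharing.

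Among members called lower, those with the smallest p in counts came from both subunits. Rps26, whose human gene is mutated in Diamond-Blackfan anaemia, had 326, 291 and 237 TPM in mature neurons, against 739, 638, 653 and 673 TPM in progenitors (log2 fold in counts -1.13 ± 0.11, adjusted p = 6.5e-05, edgeR). Rps24, another gene of that anaemia, had 843, 873 and 758 TPM in mature neurons, against 1558, 1432, 1453 and 1524 TPM in progenitors. All neuron libraries lay below all progenitor libraries for both, and the fold of Rps24 was -0.79 ± 0.08 (adjusted p = 6.6e-05, edgeR). Rps15a fell by 0.83 ± 0.09 in counts (adjusted p = 1.0e-04, edgeR). Its copies held 42.0% of the gene-plus-copy TPM in mature neurons and 10.9% in progenitors. Mature neurons had 0.485 of the progenitor TPM for Rps15a alone and 0.745 with its copies. In the large subunit the smallest p among members called lower were those of Rpl10, an X-linked protein that joins the subunit late in its assembly (-1.26 ± 0.10, adjusted p = 2.5e-05), Rpl10a (-1.06 ± 0.13, adjusted p = 1.9e-04) and Rpl7 (-0.58 ± 0.07, adjusted p = 2.1e-04), all by edgeR. Rpl10 had 252, 256 and 228 TPM in mature neurons, against 603, 461, 438 and 596 TPM in progenitors, and the sets did not overlap.

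Rpl41, the shortest ribosomal protein, had 1829, 1797 and 1683 TPM in mature neurons, against 2533, 2265, 2180.4 and 2248 TPM in progenitors. Its fold in counts was -0.26 ± 0.07 (adjusted p = 0.0092, edgeR), and the libraries did not overlap. Rpl7 had 1111, 1081 and 1043 TPM in mature neurons, against 1862, 1612, 1758 and 1713 TPM in progenitors. Rps9, a small subunit protein, had 698, 666 and 658 TPM in mature neurons, against 1501, 1246, 1273 and 1293 TPM in progenitors (-0.81 ± 0.09 in counts, adjusted p = 1.7e-04, edgeR). Rps27, a zinc finger protein, was high in TPM but had only 26 to 44 counts in mature neurons and 36 to 48 counts in progenitors, and it was called lower by limma on TPM (-0.53 ± 0.11, adjusted p = 0.0036) and not by edgeR on counts (-0.05 ± 0.24, adjusted p = 0.87).

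The stalk, where translation factors dock, did not move as a unit. Rplp1, an acidic stalk protein, had 1452, 1254 and 1349.8 TPM in mature neurons, against 1359, 1126, 1185 and 1146 TPM in progenitors. The libraries overlapped, edgeR on counts called it higher by 0.25 ± 0.08 (adjusted p = 0.034), and limma on TPM did not (0.17 ± 0.09, adjusted p = 0.16). The call in counts was lost without any of 5 libraries (all but P7 neurons and P3 progenitors), with adjusted p of 0.067 to 0.098 by edgeR. Its partner Rplp2 had 679, 609.8 and 587 TPM in mature neurons, against 1229, 922, 1065 and 969 TPM in progenitors, and fell by 0.63 ± 0.11 in counts (adjusted p = 0.0014, edgeR). Rplp0, the stalk base, had 355, 478 and 235 TPM in mature neurons, against 1182, 919.9, 1014 and 921 TPM in progenitors, a fold in counts of -1.43 ± 0.24 (adjusted p = 0.0010, edgeR). Its copy Gm8730 had 144, 14.7 and 101 TPM in the same neuron libraries and 14.8, 24.5, 20.9 and 16.8 TPM in progenitors, and the neuron libraries low in Rplp0 were high in the copy. Gene and copies together gave a TPM difference of -1.13 ± 0.14 (adjusted p = 2.7e-04, limma).

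Rpl5 and Rpl11, which bind the smallest ribosomal RNA and are known as sensors of failed ribosome assembly, depended on the table. Rpl11 had 289, 255 and 222 TPM in mature neurons, against 636, 554, 579 and 573 TPM in progenitors. Its difference was -1.20 ± 0.10 in TPM (adjusted p = 3.7e-05, limma) and -0.51 ± 0.17 in counts (adjusted p = 0.030, edgeR). Rpl5 had 102, 103 and 88.8 TPM in mature neurons, against 109, 119.6, 118 and 117 TPM in progenitors, while its copy Gm15500 had 460.3, 426 and 373 TPM against 728, 679, 667 and 729.5 TPM. The libraries were apart for both, and Rpl5 was called lower on TPM (-0.24 ± 0.07, adjusted p = 0.019, limma) but not on counts (-0.04 ± 0.06, adjusted p = 0.61, edgeR). Rps6, the target of S6 kinase, had 237, 216 and 208 TPM in mature neurons, against 412, 353, 357 and 356 TPM in progenitors, and was lower by edgeR on 7 to 13 counts against 20 to 28 (-1.05 ± 0.30, adjusted p = 0.016). Without the P7 neuron library Rps6 was not called (adjusted p = 0.061, edgeR). Rps27a, made as a fusion with ubiquitin, was lower in both tables (-0.52 ± 0.18 in counts, adjusted p = 0.031, edgeR). In counts the call of Rpl11 was lost without any of 6 of the 7 libraries (all but P3 progenitors) and that of Rps27a without any of 5 (all but the P16 library of each population), with adjusted p of 0.051 to 0.075 and 0.057 to 0.11 by edgeR.

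Around the tunnel through which the new peptide leaves, 6 of 8 genes were lower in counts, 1 higher (Rpl26) and 1 not called (Rpl23a). At the messenger RNA entry and decoding centre, Rps2, Rps3, Rps15 and Rps23 were all called lower in both tables, with medians of -0.80 in counts and -0.77 in TPM. The call of Rps23 in counts (-0.94 ± 0.33, adjusted p = 0.035, edgeR) was lost without any of 6 libraries (all but P7 neurons), with adjusted p of 0.054 to 0.10. Among 17 genes whose human counterparts are mutated in Diamond-Blackfan anaemia, 10 were lower and 1 higher in counts, and 14 lower and 2 higher in TPM. Over all genes the shares were 30.0% lower and 28.8% higher in counts and 34.8% and 22.8% in TPM, and over all members 58 of 82 were lower in counts and 70 of 85 in TPM.

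Several members departed from the others in 1 or both tables, and copies of theirs were listed at levels that also differed between the populations. Rpl26, at the tunnel exit, had 740.3, 732 and 746 TPM in mature neurons, against 175, 159.9, 163 and 153 TPM in progenitors. Its copy Gm15772 had the opposite pattern, 14.0, 13.0 and 7.71 TPM in mature neurons, against 1421, 1130.1, 1251 and 1272 TPM in progenitors. Gene and copies together came to 763, 752 and 759.9 TPM in mature neurons, against 1603, 1294, 1420.5 and 1432 TPM in progenitors. The populations were apart in each. Rpl26 alone was called higher (5.35 ± 0.16 in counts, adjusted p = 1.0e-06, edgeR) and the sum lower (-0.92 ± 0.08 on log2(TPM + 1), adjusted p = 6.3e-05, limma). The count table had the same pattern, with 674, 593 and 697 counts on Rpl26 in mature neurons against 17, 15, 18 and 22 in progenitors, and 4, 2 and 1 counts on Gm15772 against 985, 754, 874 and 918.

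Rps3a1, a small subunit protein, showed the reverse. It had 174, 210.0 and 272 TPM in mature neurons, against 910.0, 801, 810.0 and 801 TPM in progenitors. The pseudogene Rps3a2 had 323, 258 and 209 TPM in mature neurons, against 16.9, 16.2, 10.6 and 6.40 TPM in progenitors. Rps3a3, another pseudogene, had 266, 238 and 178 TPM against 1.38, 1.93, 1.73 and 1.41 TPM. Neuron and progenitor libraries did not overlap for any of the 3 genes. Rps3a1 alone fell by 2.20 ± 0.32 in counts (adjusted p = 5.5e-04, edgeR) and Rps3a3 was higher by 6.88 ± 0.20 (adjusted p = 1.0e-06), the widest difference of any member. Summed, gene and copies had 774, 716 and 669.9 TPM in mature neurons, against 941, 832, 832 and 819 TPM in progenitors, a difference of -0.25 ± 0.08 (adjusted p = 0.028, limma). On counts, 700, 645 and 499 fell on Rps3a3 in mature neurons and 5 to 7 in progenitors, and Rps3a2 had a single count in all 7 libraries.

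Rps13 had 13.0, 13.5 and 13.3 TPM in mature neurons, against 298, 239.8, 288 and 244 TPM in progenitors, although its counts were higher in mature neurons (191 to 202 against 144 to 176). Rps13-ps1 had 591, 539 and 510.2 TPM in mature neurons, against 11.0, 14.7, 7.06 and 8.88 TPM in progenitors, and the exact copy Rps13-ps2 had 75.7, 77.0 and 92.4 TPM against 747, 626, 610.5 and 671 TPM. Counts and TPM gave opposite calls for the gene (0.42 ± 0.14, adjusted p = 0.028, edgeR, and -4.23 ± 0.09, adjusted p = 1.7e-07, limma). With its copies the gene was at 683, 631 and 619 TPM in mature neurons, against 1060.1, 884, 908 and 925 TPM in progenitors (-0.55 ± 0.08, adjusted p = 7.0e-04, limma). The call in counts was lost without any neuron library and without the P9 or P16 progenitors (adjusted p 0.054 to 0.075, edgeR).

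Rpsa, which is both a ribosomal protein and a laminin receptor, had 592, 519.7 and 543 TPM in mature neurons, against 379, 293, 396 and 311 TPM in progenitors. Its copy Rpsa-ps10 had 159, 144 and 134 TPM in mature neurons, against 1035, 816, 775 and 821 TPM in progenitors. Rps7 and its copy Gm6472 showed the same division, with 235, 220.2 and 171 TPM on the gene in mature neurons, against 117, 114, 120.4 and 136 TPM in progenitors. Both genes were called higher by limma on TPM (Rpsa 0.69 ± 0.12, adjusted p = 0.0013, and Rps7 0.76 ± 0.12, adjusted p = 7.8e-04) and lower with their copies (-0.78 ± 0.10, adjusted p = 3.2e-04, and -0.93 ± 0.10, adjusted p = 1.1e-04). By edgeR on counts neither was called (Rpsa -0.52 ± 0.30, adjusted p = 0.16, and Rps7 0.04 ± 0.21, adjusted p = 0.89).

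In a few genes the division differed within the progenitors as well. Rpl34 had 468, 442 and 429 TPM in mature neurons, against 175, 24.0, 233 and 44.9 TPM in progenitors, so the P7 and P16 progenitor libraries were far below those of P3 and P9. Its copy Rpl34-ps1 had 6.81, 7.50 and 7.17 TPM in mature neurons, against 719, 743, 509 and 711 TPM in progenitors. Together they came to 476, 449.9 and 439 TPM in mature neurons, against 901, 778, 748 and 767 TPM in progenitors, and the highest progenitor library was 1.20 times the lowest where Rpl34 alone gave 9.73 times. Rpl35a had 399, 388 and 313 TPM in mature neurons, against 329.9, 310.0, 95.1 and 348 TPM in progenitors, and with copies the progenitors had 952, 809.6, 908 and 860.2 TPM, with P9 no longer low. Rps18, of the small subunit head, had 593, 529.6 and 536 TPM in mature neurons, against 721, 723, 373 and 677 TPM in progenitors, and P9 was low also with its copies (404 TPM).

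**Figure D3:**
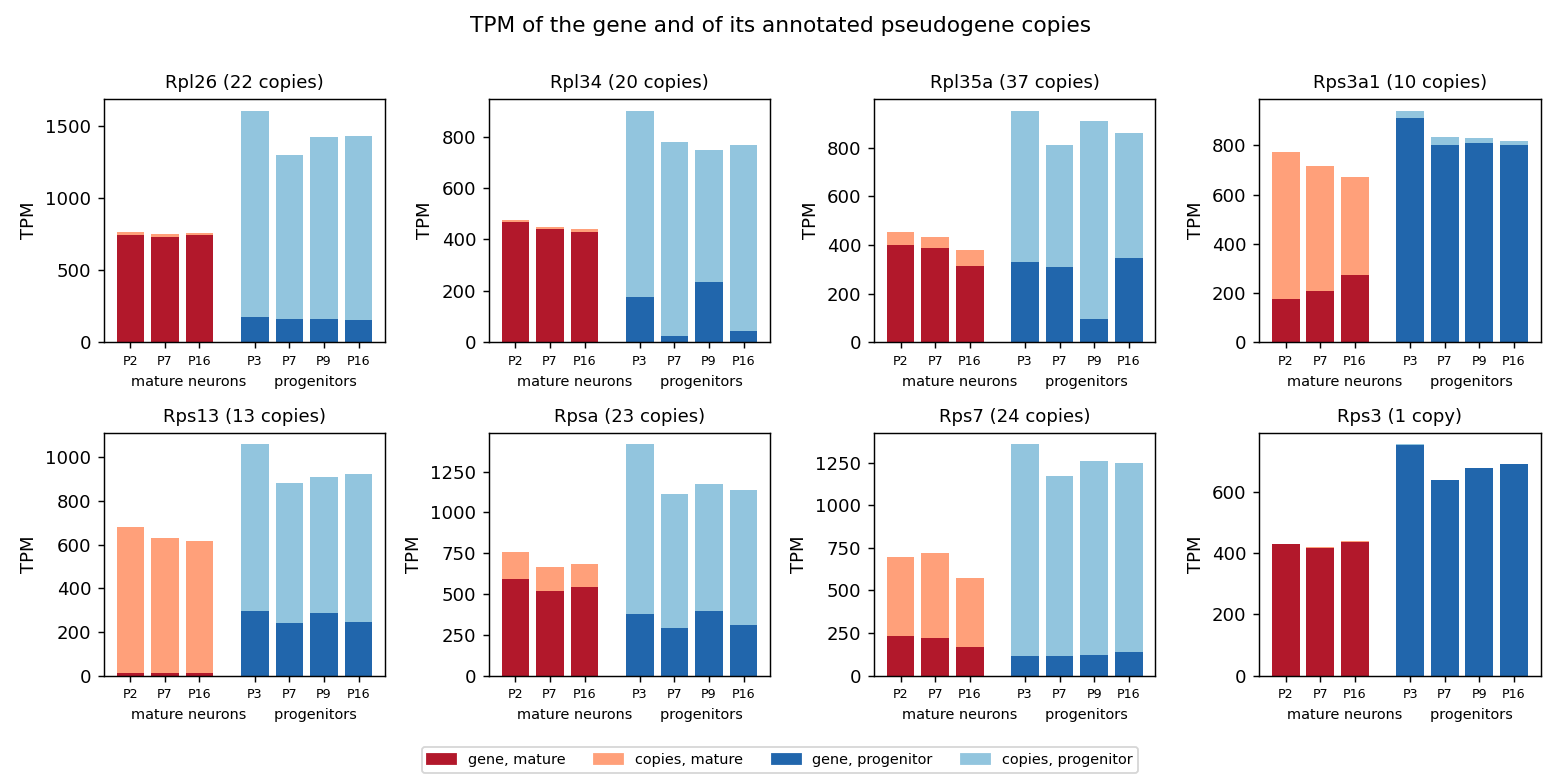
TPM of the gene (dark) and of its annotated pseudogene copies (light) in each library, mature neurons in red and progenitors in blue, for 7 genes whose reads were divided differently between the populations and for Rps3, little of whose sequence is shared. The stacked bars are lower in every mature neuron library than in every progenitor library, whichever population has the larger dark part.

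Further members differed between the tables without an opposite call. Rpl15, of the large subunit, had 441, 405 and 367 TPM in mature neurons, against 595, 505, 509 and 519 TPM in progenitors, and was lower on TPM (-0.40 ± 0.09, adjusted p = 0.0053, limma) but at 0.24 ± 0.12 in counts (adjusted p = 0.13, edgeR). Its copy Gm8420 had 329, 311 and 344 counts in mature neurons, against 2, 0, 1 and 0 in progenitors, and without the P16 neuron library edgeR called Rpl15 higher (0.37, adjusted p = 0.0065). Rpl36 had 436, 396 and 364 TPM in mature neurons, against 808, 584, 634 and 569.5 TPM in progenitors, with -0.69 ± 0.13 in TPM (adjusted p = 0.0021, limma) and 0.43 ± 0.21 in counts (adjusted p = 0.11, edgeR). For Rpl27a the difference was -0.95 ± 0.06 in TPM (adjusted p = 1.3e-05, limma) and -0.28 ± 0.10 in counts (adjusted p = 0.047, edgeR), a call in counts that was lost without any library but that of P16 neurons (adjusted p 0.060 to 0.16).

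Adding the TPM of copies to each gene narrowed the members. Over the 80 coding members tested, the standard deviation of the log2 TPM difference was 0.273 with copies, against 0.751 for the genes alone. After this sum limma called 76 of 81 genes lower, beside 34.8% of all 16657 genes, and 1 higher, beside 23.0% of all, with a median of -0.73 against -0.10 over all genes. Medians were -0.73 for the large and -0.75 for the small subunit. All 17 Diamond-Blackfan genes and all 8 tunnel genes were lower in this sum. The 4 genes not called were Rplp1, Rpl22l1, Rps27l and Rps18, and the gene called higher was Rps4l. This sum was chosen after the values were seen, and it gives to the gene all reads that the tables give to its copies.

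With the counts of copies added, the standard deviation over the 80 coding members was 0.717, against 0.827 for the genes alone. In that fit edgeR called 55 of 81 lower and 7 higher (Rpl11, Rpl15, Rpl34, Rplp1, Rps13, Rps3a1 and Rps4l). The share of all genes called in it is not given. Before copies were added, edgeR called 30.0% of all genes lower and 28.8% higher. The folds with copies ran from -3.91 for Rpsa to 2.69 for Rps4l. Rpl11 was at 1.38 in this sum (adjusted p = 1.1e-04, edgeR), and its copy Gm10036 had 344, 295 and 226 counts in mature neurons, against 22, 20, 26 and 31 in progenitors. The count table lists reads that map to several places apart from genes, at 11.9 to 13.9% of its entries.

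**Figure D4:**
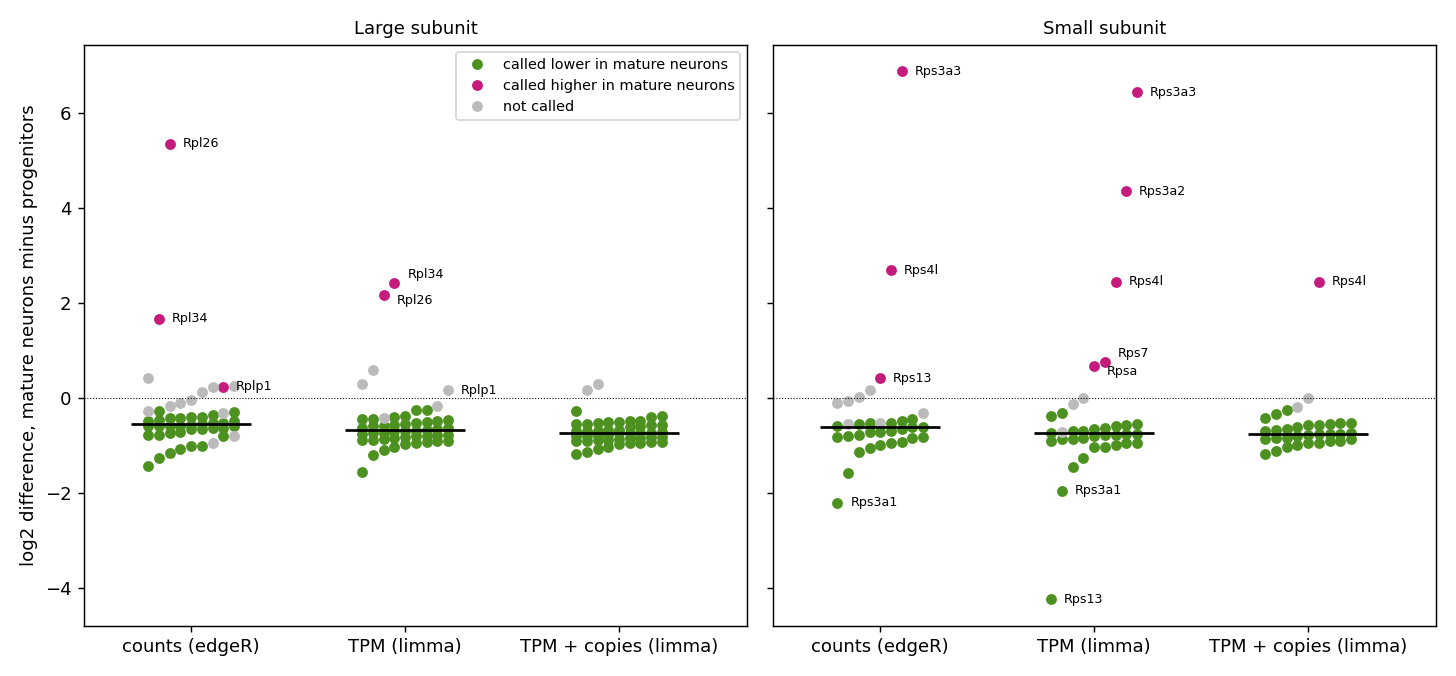
Difference between mature neurons and progenitors on the log2 scale for each tested member, by edgeR on counts, limma on TPM and limma on TPM with copies added, for the large and small subunit; colours give the call at an adjusted p of 0.05 and bars are medians. The points spread from -4.23 to 6.88 for single genes and gather around -0.73 and -0.75 once copies are added, with Rps4l at 2.45 standing apart.

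Among the paralogs, Rps4l, Rpl22l1 and Rps27l were not lower with copies added. Rps4l, a transcribed processed pseudogene on chromosome 6 with the name of an Rps4x-like gene, had 64.4, 59.7 and 36.4 TPM in mature neurons, against 12.7, 9.22, 9.17 and 5.26 TPM in progenitors. Only 14.9% of its 50-base windows occurred elsewhere, and its counts were 738, 679 and 427 in mature neurons, against 160, 107, 100 and 63 in progenitors. All neuron libraries were above all progenitor libraries, with a fold of 2.69 ± 0.30 in counts (adjusted p = 1.5e-04, edgeR) and 2.45 ± 0.28 in TPM (adjusted p = 1.9e-04, limma). Its X-linked relative Rps4x had 641, 591 and 556 TPM in mature neurons, against 1009, 847, 870.3 and 821 TPM in progenitors (-0.43 ± 0.10 in counts, adjusted p = 0.0055, edgeR).

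Rpl22, which besides its place in the ribosome binds messenger RNAs, had 215, 205 and 167 TPM in mature neurons, against 372, 309, 342 and 327 TPM in progenitors (-0.64 ± 0.09 in counts, adjusted p = 4.2e-04, edgeR). Its paralog Rpl22l1 had 147, 115 and 108 TPM in mature neurons, against 120.0, 87.9, 100.4 and 91.3 TPM in progenitors. The libraries overlapped for Rpl22l1, which was not called (0.26 ± 0.15, adjusted p = 0.15). Rps27l, a paralog of Rps27 known as a p53 target, had 120.3, 126 and 93.9 TPM in mature neurons, against 123, 97.3, 117 and 113 TPM in progenitors, with overlap and no call (0.18 ± 0.14, adjusted p = 0.28, edgeR). Rpl7l1, a nucleolar relative of Rpl7, was lower like Rpl7 itself (-0.40 ± 0.08, adjusted p = 0.0026, edgeR). Rpl3 and Rpl39, whose paralogs are tissue-restricted, had -0.43 ± 0.12 (adjusted p = 0.014) and -0.44 ± 0.12 (adjusted p = 0.013) in TPM by limma, and edgeR called only Rpl39 in counts (-0.53 ± 0.15, adjusted p = 0.014).

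Tissue-restricted paralogs were at the limit of detection. Rpl10l, expressed in testis, had 0 counts in all 7 libraries, and a count of 0 allows up to 3 counts per library. Rpl3l, expressed in skeletal and heart muscle, had 2 counts in 1 mature neuron library and Rpl39l, of male germ cells, had 3 counts in progenitors in all. The other members that failed the filter were pseudogenes: Rpl6l and Rpl32l with up to 2 counts in any library, Rps3a2, and Rps12l1. Rps12l1 was identical to Rps12 over its coding sequence and had 552, 494 and 459 TPM in mature neurons, against 824, 796, 794 and 795 TPM in progenitors, while its counts were 0 in every library.

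**Figure D5:**
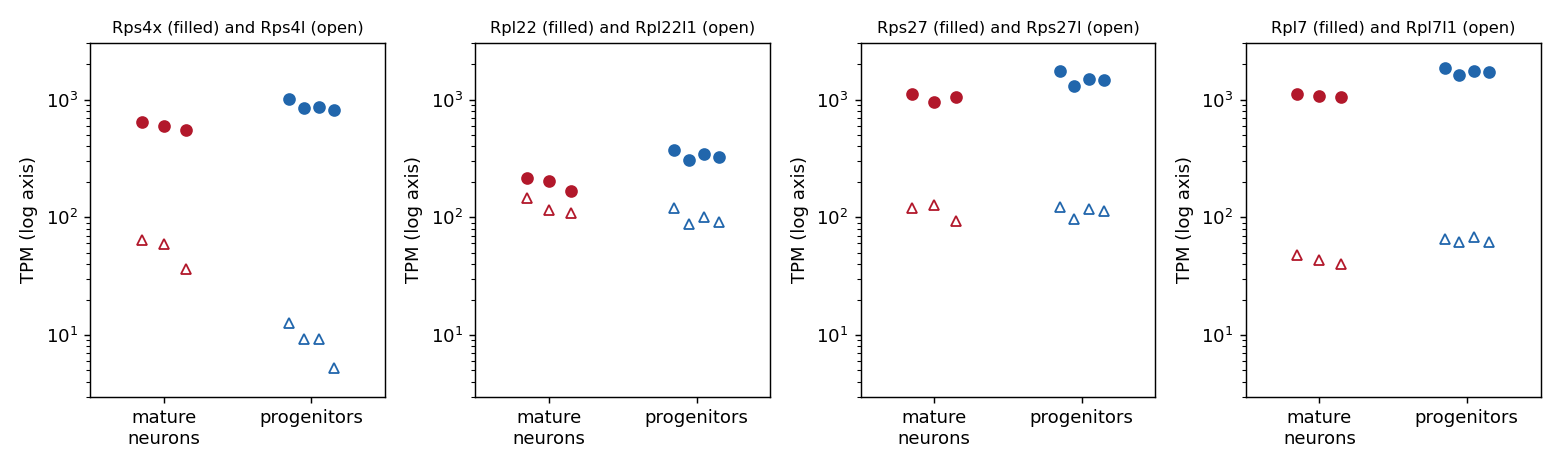
TPM (log axis) of 4 genes (filled) and their paralogs (open) in the mature neuron libraries (red, in order of age) and progenitor libraries (blue, in order of age). Rps4l is higher and Rps4x lower in mature neurons, Rpl22l1 and Rps27l overlap between the populations, and Rpl7l1 is lower like Rpl7.

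Age was tested next. With the log2 of age in days added to the population term, edgeR called 0 of 82 members and 0% of all genes for an age slope, with 11 members (13.4%) and 20.8% of all genes at an unadjusted p under 0.05. DESeq2 called 1 member, Rps4l, and 1500 genes, and limma on TPM called 0 members. At an unadjusted p under 0.05 limma had 36 of 85 members (42.4%) and 18.3% of all genes. Slopes of members had a median of -0.05 on the log2 scale per doubling of age, and 64 of 82 were below 0. Over all genes the median slope was -0.0028, with quartiles of -0.094 and 0.064. The members were read in the same libraries, so their slopes are not independent. Rps4l had the lowest slope (-0.34 ± 0.08, adjusted p = 0.084, edgeR), and its TPM was lowest at P16 in both populations. Next by p were Rps20 (-0.11 ± 0.03, adjusted p = 0.10) and Rpl22 (-0.09 ± 0.03, adjusted p = 0.12), and among slopes above 0 Rps3a1 (0.20 ± 0.13, adjusted p = 0.42), Rpl38 (0.27 ± 0.17, adjusted p = 0.42) and Rps23 (0.19 ± 0.15, adjusted p = 0.53), none called by edgeR. Without the P7 neuron library edgeR called 3 members, Rps2, Rps4l and Rplp0, and 986 genes.

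For the difference between the slopes of the populations, edgeR called 0 members and 0% of all genes, with 3 members and 5.98% of all genes at an unadjusted p under 0.05. DESeq2 called 1 member, Rps3a1, of 6 genes in all, and limma on TPM called 0 members. Rps3a1 had a slope in mature neurons 0.67 ± 0.10 above that in progenitors (adjusted p = 0.81, edgeR): its counts were 72 (P2), 117 (P7) and 207 (P16) in mature neurons, against 794 (P3), 671 (P7), 672 (P9) and 605 (P16) in progenitors. Over the same neuron libraries Rps3a2 and Rps3a3 were highest at P2 and lowest at P16. The other members named for this difference were Rpl32 (0.15 ± 0.06), Rpl15 (-0.19 ± 0.08) and Rpl5 (-0.07 ± 0.05), with adjusted p of 0.81, 0.81 and 0.84 by edgeR.

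Ribosomal protein genes outside the name rule were looked up as well. Fau, made as a fusion with a ubiquitin-like protein, had 548 ± 20.2 TPM in mature neurons (SD, n = 3) and 907 ± 55.0 TPM in progenitors (SD, n = 4), with 18 to 33 and 129 to 174 counts (-2.55 ± 0.26, adjusted p = 8.2e-05, edgeR). Rpl36al, a relative of Rpl36a, had only 15 to 32 counts in any library and was not called in counts (-0.36 ± 0.31, adjusted p = 0.34, edgeR). On TPM it was called lower (-0.36 ± 0.10, adjusted p = 0.015, limma). It had 172 ± 14.1 TPM in mature neurons and 222 ± 24.4 TPM in progenitors, without overlap.

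Other parts of the protein synthesis machinery were counted in the same fits. The mitochondrial ribosome, whose proteins are encoded apart, had 12 of 77 genes lower and 25 higher by edgeR, beside 30.0% and 28.8% of all genes, with a median of 0.05. On TPM limma called 18 of 78 lower and 20 higher, beside 34.8% and 22.8% of all genes, with a median of -0.08. Mrpl15 was lower (-0.63 ± 0.09, adjusted p = 5.4e-04) and Mrpl27 higher (0.87 ± 0.09, adjusted p = 9.7e-05). For RNA polymerase I, which makes ribosomal RNA, 7 of 15 were lower and 1 higher (median -0.30), with its initiation factor Rrn3 at -0.76 ± 0.05 (adjusted p = 1.6e-05). Of the ribosome assembly factors, 22 of 40 were lower and 1 higher (median -0.27), with Nip7 at -0.84 ± 0.10 (adjusted p = 1.8e-04) and Gnl2, the one higher, at 0.37 ± 0.08 (adjusted p = 0.0037), all by edgeR. On TPM limma called 9 of 15 polymerase I genes and 26 of 40 assembly factors lower, and 0 of either higher. Gnl2 was not called on TPM (0.23 ± 0.09, adjusted p = 0.054, limma), though its libraries did not overlap.

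Initiation factors were lower in 14 of 35 and higher in 5 by edgeR (median -0.14), and lower in 24 and higher in 2 by limma on TPM (median -0.35). Over all genes 30.0% were lower and 28.8% higher by edgeR, and 34.8% and 22.8% by limma on TPM. Eif3f was at -0.93 ± 0.08 (adjusted p = 3.7e-05, edgeR). Elongation and release factors were lower in 7 of 13 and higher in 2 by edgeR. The elongation factor Eef1a1 had 3766 ± 369 TPM in mature neurons (SD, n = 3) and 6462 ± 327 TPM in progenitors (SD, n = 4), while its neuronal and muscle form Eef1a2 had 359 ± 27.4 and 188 ± 33.5 TPM. Both were called by edgeR, in opposite directions (-0.79 ± 0.10, adjusted p = 2.6e-04, and 1.05 ± 0.15, adjusted p = 4.7e-04). Of 11 other TOP messenger RNAs, 9 were lower and 0 higher by edgeR (10 lower by limma on TPM), with a median of -0.60 and Hnrnpa1 at -0.93 ± 0.08 (adjusted p = 3.7e-05). Of growth and TOP signalling genes, 8 of 16 were lower and 2 higher by edgeR, and 8 lower and 1 higher by limma on TPM. The Myc relative Mycl was at -2.35 ± 0.34 (adjusted p = 5.0e-04) and the translation inhibitor Eif4ebp2 at -1.02 ± 0.09 (adjusted p = 3.6e-05), both by edgeR. Larp1, a TOP binding protein, was at 0.33 ± 0.09 in counts (adjusted p = 0.013, edgeR). On TPM Larp1 was not called (0.17 ± 0.12, adjusted p = 0.27, limma), and its libraries overlapped.

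The start sites of the members were read for the pyrimidine tract. RefSeq promoters (GRCm38.p6) were at hand for 64 members. Where a gene had several annotated starts, the longest run and a match at any of them were taken. Genes with more starts thus had more chances, and the number of starts was not adjusted for. A run of C and T that began within 10 bases of an annotated start was at least 8 long in 22 of 64 members (34.4%) and in 10.7% of all 27025 genes. It was at least 5 long in 64.1% and 42.1%. The letters CTTTCC occurred on either strand within 50 bases of a start in 32.8% of members and 10.3% of all genes. They were in 42.5% of the large subunit genes (17 of 40) and 16.7% of the small subunit genes (4 of 24). Each window holds the 40 bases before a start and the 20 from it, with the run in capitals. For genes with several starts, the window shown is the one with the longest run. Examples with a run of at least 8 are shown for each subunit, beside Rpl22l1 and Rps27l, which were not called lower.
Rpl27a (chr7:109519155-109519214, plus strand): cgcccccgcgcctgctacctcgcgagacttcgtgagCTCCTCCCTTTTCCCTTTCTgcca
Rpl35 (chr2:39005112-39005171, minus strand): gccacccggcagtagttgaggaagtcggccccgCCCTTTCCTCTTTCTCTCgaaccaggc
Rpl15 (chr14:18270967-18271026, minus strand): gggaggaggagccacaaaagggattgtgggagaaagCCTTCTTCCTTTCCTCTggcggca
Rps27 (chr3:90213629-90213688, minus strand): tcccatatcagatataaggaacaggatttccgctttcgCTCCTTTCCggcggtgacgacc
Rps9 (chr7:3704001-3704060, plus strand): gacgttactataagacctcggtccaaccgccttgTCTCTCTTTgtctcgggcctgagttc
Rps26 (chr10:128626487-128626546, minus strand): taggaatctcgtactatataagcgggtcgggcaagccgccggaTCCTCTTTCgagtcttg
Rpl22l1 (chr3:28805468-28805527, plus strand): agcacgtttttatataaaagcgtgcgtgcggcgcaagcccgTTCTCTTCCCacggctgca
Rps27l (chr9:66946046-66946105, plus strand): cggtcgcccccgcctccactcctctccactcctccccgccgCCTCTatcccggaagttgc

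Rpl27a, Rpl35 and Rpl15 had runs of 20, 18 and 17 bases, the longest of the members with a promoter, and limma on TPM with copies added called all 3 lower. The runs of Rps27, Rps9 and Rps26 were 9 bases each. Rpl22l1 had a run of 10 bases and Rps27l one of 5. Rps18, which was not called either, had a run of 11 bases, and long runs stood both in genes that were lower and in genes that were not called. A match is only a description of an annotated start, which may not be the start used in these cells.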

How the data were processed

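Sorted pools of mature olfactory sensory neurons (3 libraries) and intermediate progenitors (4 libraries) were sequenced as stranded, poly(A)-selected messenger RNA, per the labels' protocols. The authors deposited a table of read counts per gene and a table of TPM per gene, and the tools listed in the submitters' processing notes are RSEM, STAR 2.6.1c and bcl2fastq 2.18. The count table lists multimapping reads apart from genes. Not given in the sources used here are the annotation release, the strand setting and how such reads entered the TPM values. Entries that name no gene held 23.5 to 27.2% of the count table and were left out.

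Members were found by name in the TPM table. The members and lists were chosen with earlier results of these data known. Counts were fitted with edgeR 4.0.16 (quasi-likelihood test, TMM, its filter on low counts), and log2(TPM + 1) with limma 3.58.1 for genes with a mean of at least 1 TPM, in R 4.3.3. Calls used a Benjamini-Hochberg adjusted p of 0.05 over all genes tested. DESeq2 1.42.0, other pseudocounts and filters, and leaving out each library were alternatives. Copies were found with BLAST 2.17.0. On simulated data edgeR called 100, 96, 94 and 100% of genes changed by -2, -1, 1 and 2 (log2, 50 genes each of 17692) and 0.0686% of unchanged genes. The simulation gave all genes the same dispersion, and its few changed genes were balanced in direction and above a floor of expected counts. These shares need not hold for members with few counts or where many genes differ. Genes named were those with the smallest p of each subunit and direction, the widest gaps between tables, paralog pairs, special members, the most abundant, those that failed the filter, and the leading age slopes; exceptions are stated beside their values. Some genes are not reported here.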

Additional observations from a re-analysis of the deposited data

Results flagged for a closer look

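Among the named members, 77 sets of 4 progenitor values (counts or TPM) were examined for a library far from the others, and 6 were found. Chance gives about 1 in 20 such sets. In 4 of them the P3 progenitor library was high in TPM: Rpl15 with 594.55 TPM beside 505 to 519 TPM in the others, Rps3a1 with 909.95 TPM beside 801 to 810.0 TPM, Rps6 with 411.81 TPM beside 353 to 357 TPM, and Rps12l1 with 823.53 TPM beside 794 to 796 TPM. The same library was high in counts of Rpl32, with 3308 beside 2414 to 2544. Rps27a had 106 counts in the P16 progenitor library, beside 130 to 134 in the others. The cause was not tested.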

How the results depend on the processing

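For named genes, 606 alternative values of the population fold were computed: 501 kept direction and call, 54 lost the call, 23 gained one and 28 changed sign. Members called lower numbered 49 to 55 with 1 library left out and 37 with an age block on P7 and P16. Those called higher numbered 4 to 6, and 1 on TPM summed with copies. For the fits on fewer libraries the share of all genes called is not given. Their counts, and the drop to 37, therefore cannot be read as particular to the members. The labels give no replicate numbers, and the age block could use only the 4 libraries of ages present in both populations. Age slopes gave 1 call by DESeq2, 1 with no filter and 0 to 3 with a library left out; slope differences gave 1 by DESeq2 and 0 otherwise. The large subunit ratio of mature neurons to progenitors (0.682) was 0.764 in CPM, 0.591 without genes that have a copy above 1 TPM, 0.619 with copies and 0.664 to 0.708 with a library left out; that of the small subunit (0.625) was 0.633, 0.596 and 0.613 in the same order and 0.605 to 0.653 with a library left out. The large to small ratio was 1.57, 2.22, 0.743 and 1.44 in mature neurons and 1.31, 2.24, 0.704 and 1.43 in progenitors (CPM, no copy above 1 TPM, medians, with copies), and 1.30 to 1.32 and 1.20 to 1.21 with a library left out. Without any member that has a copy, no small subunit gene remained and no ratio could be given. The median over all genes was -0.10 on TPM and 0.01 in counts. On TPM 3851 genes were called higher and 5869 lower, against 5180 and 5385 in counts. TMM scaling centres the folds of typical genes in counts and was not applied to TPM, which has the same total in every library. Signs changed on summed counts for Rpl11 (1.38), Rpl26 (-0.27), Rps27 (0.0034), Rps3a1 (0.28) and Rps7 (-2.69), and on summed TPM for Rpl15 (-0.47), Rpl26 (-0.92), Rpl34 (-0.81), Rpl36 (-0.72), Rps13 (-0.55) and Rps7 (-0.93). They changed on TPM alone for Rpl15 (-0.40), Rpl36 (-0.69), Rps13 (-4.23, and -4.32 with a pseudocount of 0.1) and Rpsa (0.69), and with a library left out for Rpl5 (-0.059 to 0.0046), Rps27 (-0.24 to 0.13) and Rps7 (-0.077 to 0.089). The cause was not tested. Few counts limit the precision of the count folds of some members.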

Other observations

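The genes outside the family whose TPM followed the mean of 84 members most closely over the 7 libraries were Dut (Pearson r 0.999), Rack1 (0.998), Mif (0.998), Dlgap5 (0.998) and Cdc25a (0.998). Rack1 is a protein bound to the small subunit, Dut makes the precursor of thymidine nucleotides, and Dlgap5 and Cdc25a act in the cell cycle. The libraries form 2 separate populations, so these values describe the difference between the populations and carry no test.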
